A study of Mus musculus with 9 samples.

Results

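The Jun family of AP-1 transcription factor genes, Jun, Junb and Jund, was followed through the first hour of a lipopolysaccharide (LPS) response in macrophages. The members were taken by symbol from the deposited gene table and are 3 of its 55450 gene identifiers. The rule itself used no measured values, but the members were chosen with earlier results of these data known. The cells were IMM, a line of immortalized mouse macrophages whose genotype the labels give as WT. How the line was immortalized, and whether it is 1 clone, is not given in the sources used here. The groups were untreated cells at 0 min and cells given LPS at 100 ng/mL for 30 or 60 min, with 3 libraries at each time and 9 in all. No untreated culture of 30 or 60 min was analysed here, so LPS, handling and elapsed time cannot be told apart. The design text calls the libraries of a time biological replicates. If they came from 1 parent culture, p-values measure only the spread between these libraries.

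AP-1 is a dimer of proteins that carry a basic DNA-binding region and a leucine zipper. Jun proteins pair with each other, with Fos proteins and with some ATF proteins, and the dimers bind short palindromic sites in promoters and enhancers. In macrophages LPS is sensed by Tlr4, and the MAP kinases activated below it, among them the Jun N-terminal kinases (JNK), phosphorylate Jun and other AP-1 proteins. Jun and Junb are textbook immediate-early genes, and Jund is usually described as the family member made most steadily in resting cells. JunB has been described both as a weaker activator than c-Jun and as an activator in its own right, depending on its partner and the promoter.

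All 3 members lie on the GRCm38 genome as short genes whose coding transcript is a single exon in the GENCODE annotation. Jun (ENSMUSG00000052684.4) is on chromosome 4, bases 95049034 to 95052222, minus strand, with a transcript of 3189 bases and a coding sequence at 95050270 to 95051271. Junb (ENSMUSG00000052837.6) is on chromosome 8, bases 84974484 to 84978718, minus strand, with a coding transcript of 1809 bases, a coding sequence at 84977398 to 84978429 and a second, noncoding transcript. Jund (ENSMUSG00000071076.6) is on chromosome 8, bases 70698949 to 70700616, plus strand, with a transcript of 1668 bases and a coding sequence at 70699058 to 70700080. Among the 11313 protein-coding genes tested, 338 (2.99%) have coding transcripts of 1 exon only. The libraries were made from total RNA, and with no intron to read, newly made and mature transcripts of these genes cannot be separated.

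The start regions of Jun and Junb are shown because both genes rose after LPS and the windows hold the short motifs described next, of which both share the CCAAT box. Each sequence runs 5′ to 3′ along the gene's own strand, from 250 bases before to 50 bases after the RefSeq start on GRCm38.p6. Capitals mark the motif matches named below, and the window of Jun is chr4:95052173-95052472 and that of Junb is chr8:84978699-84978998, both on the minus strand.
Jun: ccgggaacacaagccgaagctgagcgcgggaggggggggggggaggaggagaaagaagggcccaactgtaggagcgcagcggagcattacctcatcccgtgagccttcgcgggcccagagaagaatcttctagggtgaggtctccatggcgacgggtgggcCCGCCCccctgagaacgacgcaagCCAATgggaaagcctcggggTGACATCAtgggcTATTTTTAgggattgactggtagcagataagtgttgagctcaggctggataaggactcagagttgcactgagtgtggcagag
Junb: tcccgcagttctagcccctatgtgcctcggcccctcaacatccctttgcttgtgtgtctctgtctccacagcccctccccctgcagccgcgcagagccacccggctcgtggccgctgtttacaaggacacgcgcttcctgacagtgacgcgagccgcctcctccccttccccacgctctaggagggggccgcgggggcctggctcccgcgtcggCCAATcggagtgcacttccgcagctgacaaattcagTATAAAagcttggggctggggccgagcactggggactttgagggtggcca

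The Jun window held TGACATCA, an AP-1-like site known from the human JUN promoter, 45 to 38 bases before the start. This 8-base word was found on either strand in 3.62% of the 32851 windows of the same length. It was followed by TATTTTTA, the core of a MEF2-type site, 32 to 25 bases before the start, a word found in 2.72% of windows. CCAAT stood 65 to 61 bases before the start (37.4% of windows), and the GC box GGGCGG stood on the opposite strand as CCGCCC, 89 to 84 bases before it (35.7% of windows). The Junb window held CCAAT 36 to 32 bases before the start and TATAAA from base 1 to base 6 of the RefSeq transcript (13.6% of windows). The RefSeq start of Junb lies 30 bases before the GENCODE start, and that of Jun is at the same base in both. Neither window held TGACTCA, the canonical AP-1 site (5.2% of windows), TGACGTCA, the CRE (1.79%), or GGGNNTTCC, a core of the NF-kB site (5.82%). Other AP-1-like words were not searched for, so the windows may hold more such sites than are marked. GC made up 60.0% of the Jun window and 65.3% of the Junb window. The RefSeq start of Jund lies 1210 bases before the GENCODE start, so its window does not adjoin the transcript counted here and is not printed.

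The libraries held 26867428 to 30402308 counts each, and 14246 genes passed the filter on low counts, all 3 members among them. Mitochondrial transcripts made up 3.32% to 4.28% of each library. The macrophage label held against its markers: all 8 listed macrophage genes were detected at every time, with a summed level of 1945 to 2019, 2003 to 2040 and 1984 to 2076 CPM (counts scaled to the library's total) at 0, 30 and 60 min. The markers of T cells, B cells, neutrophils, fibroblasts and epithelial cells summed to at most 0.384 CPM per list in any library, those of endothelial cells to at most 2.2 CPM, and the mast cell markers Cpa3, Kit and Fcer1a were at 0 throughout. In bulk RNA, fewer cells making a transcript and less RNA per cell cannot be told apart.

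All 3 members had risen at 30 min and were still above 0 min at 60 min, and they differed in size and in what followed. Junb rose most and kept rising, to 4.23-fold at 30 min and 7.01-fold at 60 min over 0 min. Jun reached 2.63-fold at 30 min and was at 2.61-fold at 60 min. Jund, the lowest of the family per transcript length, rose 2.09-fold at 30 min and 2.58-fold at 60 min. In the whole table, edgeR's quasi-likelihood test with Benjamini-Hochberg adjustment called 4.84% of genes higher at 30 min than at 0 min and 13.3% higher at 60 min than at 0 min, at an adjusted p under 0.05, and 3.35% and 11.7% lower. A rise of at least 2-fold with that call was rarer, at 1.41% of genes at 30 min and 3.03% at 60 min, and all 3 members met it at both times.

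Jun, which encodes c-Jun, held 3149, 3008 and 3336 counts in the 0 min libraries, 8867, 7975 and 7722 at 30 min, and 7714, 8543 and 8842 at 60 min. After TMM scaling this was 115.5, 106 and 108 CPM at 0 min, 309.9, 277 and 279 CPM at 30 min, and 270.5, 289.7 and 300.1 CPM at 60 min. Every 30 min and 60 min library lay above every 0 min library, and the 30 and 60 min libraries overlapped. The log2 change was 1.39 (SE 0.053, 95% interval 1.28 to 1.51, edgeR adjusted p = 3.00e-10) at 30 min and 1.39 (SE 0.053, 95% interval 1.27 to 1.5, edgeR adjusted p = 1.40e-10) at 60 min, each against 0 min. Between 60 and 30 min the log2 difference was -0.01, with a 95% interval of -0.12 to 0.10 (edgeR adjusted p = 0.941), and no difference was detectable at this replication. Ranked by log2 change among the 14246 genes, Jun stood 182nd at 30 min and 300th at 60 min.

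Junb, which encodes JunB, held 1109, 1193 and 1334 counts at 0 min, 5599, 4829 and 4702 at 30 min, and 8686, 8845 and 8182 at 60 min. Its level was 40.7, 41.9 and 43.3 CPM at 0 min, 196, 167 and 169.8 CPM at 30 min, and 305, 299.9 and 278 CPM at 60 min. The 3 times did not overlap, and each later time lay wholly above the one before. The log2 change was 2.08 (SE 0.060, 95% interval 1.95 to 2.21, edgeR adjusted p = 2.41e-11) at 30 min and 2.81 (SE 0.061, 95% interval 2.68 to 2.94, edgeR adjusted p = 1.33e-12) at 60 min. From 30 to 60 min Junb rose by a further 0.73 on the log2 scale (SE 0.055, 95% interval 0.61 to 0.84, 1.66-fold, edgeR adjusted p = 5.59e-07), in a comparison where 8.87% of all genes were called higher and 1.64% higher by at least 2-fold. By log2 change it stood 100th of the 14246 genes at 30 min and 108th at 60 min.

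Jund, which encodes JunD, held 400, 401 and 492 counts at 0 min, 881, 872 and 901 at 30 min, and 1095, 1100 and 1174 at 60 min. Its level was 14.7, 14.1 and 16.0 CPM at 0 min, 30.8, 30.2 and 32.5 CPM at 30 min, and 38.4, 37.3 and 39.8 CPM at 60 min. Here too the 3 times did not overlap. The log2 change was 1.06 (SE 0.059, 95% interval 0.94 to 1.19, edgeR adjusted p = 1.58e-08) at 30 min and 1.37 (SE 0.058, 95% interval 1.24 to 1.49, edgeR adjusted p = 3.71e-10) at 60 min. The step from 30 to 60 min was a rise of 0.30 on the log2 scale (SE 0.054, 95% interval 0.19 to 0.42, 1.24-fold, edgeR adjusted p = 0.00128). Jund stood 250th of the 14246 genes by log2 change at 30 min and 306th at 60 min.

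**Figure D1:**
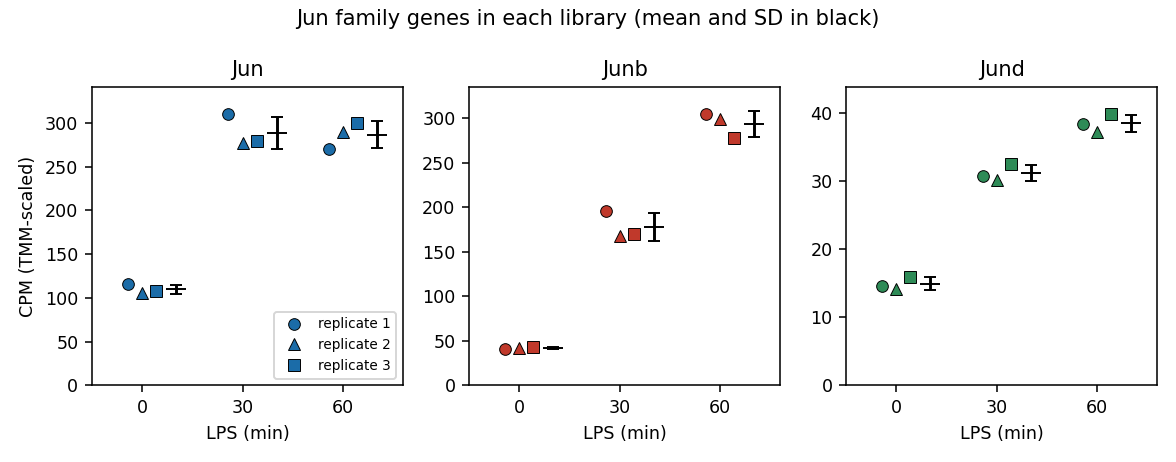
Level of Jun, Junb and Jund in TMM-scaled CPM at 0, 30 and 60 min of LPS, 1 panel and 1 linear axis per gene. Points are the 3 libraries of a time, with the mean and SD in black beside them; Junb climbs at both steps to 278 to 305 CPM, while Jun at 60 min (270.5 to 300.1 CPM) overlaps Jun at 30 min (277 to 309.9 CPM).

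The authors' deposited table gives log2 fold changes of 1.39 for Jun, 2.08 for Junb and 1.06 for Jund at 30 min. For 60 min, the authors' deposited table gives 1.38 for Jun, 2.81 for Junb and 1.37 for Jund. Of the 30 min libraries, replicate 1 held the highest value of Jun and of Junb but not of Jund. The same library was also highest for the cytokine genes Tnf, at 446 CPM beside 279 and 298 CPM in the other 30 min libraries, and Il1b, at 69.2 CPM beside 27.5 and 33.5 CPM. Without it, the log2 change at 30 min against 0 min was 1.34 for Jun, 2.01 for Junb and 1.07 for Jund.

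Divided by transcript length, so that the members can be compared with each other, the order of the family changed over the hour. At 0 min Jun was highest at 34.4 ± 1.59 CPM per kb (SD, n = 3), then Junb at 23.2 ± 0.725, then Jund at 8.94 ± 0.575, and no neighbours in this order overlapped. At 30 min Junb stood at 98.2 ± 8.67 CPM per kb and Jun at 90.5 ± 5.83, with overlapping ranges of 92.6 to 108 for Junb and 86.7 to 97.2 for Jun, although Junb was above Jun within each of the 3 libraries. Jund was at 18.7 ± 0.721 CPM per kb at that time. At 60 min Junb was at 163 ± 7.96 CPM per kb, Jun at 89.9 ± 4.70 and Jund at 23.1 ± 0.767, again with no overlap.

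The summed level of the family was 66.6 ± 1.56 CPM per kb at 0 min, 207 ± 14.3 at 30 min and 276 ± 3.80 at 60 min (SD, n = 3 each). Jun made up 51.7% ± 1.73 of that sum at 0 min, 43.6% ± 0.267 at 30 min and 32.6% ± 1.98 at 60 min. The share of Junb was 34.9% ± 1.35 at 0 min, 47.3% ± 0.878 at 30 min and 59.0% ± 2.25 at 60 min. Jund held 13.4% ± 0.667, 9.05% ± 0.742 and 8.38% ± 0.394 of the sum at 0, 30 and 60 min. Its mean share was thus lowest when its own level was highest. The shares of Jund at 30 min (8.248% to 9.714%) and at 60 min (8.015% to 8.799%) overlapped. With the RefSeq gene lengths (3187 bases for Jun, 1840 for Junb and 2878 for Jund) the level of Jund was 5.18, 10.8 and 13.4 CPM per kb at 0, 30 and 60 min, and its share 8.29%, 5.50% and 5.09%. The shares at 60 min were then 34.2% for Jun and 60.7% for Junb. The RefSeq length of Jund takes in 1210 bases before the GENCODE start. If the counting used the GENCODE transcript, reads there were not counted, and these values of Jund are too low. By level per GENCODE length among the 11313 protein-coding genes, Junb stood 2797th at 0 min, 543rd at 30 min and 301st at 60 min, against 1846th, 603rd and 628th for Jun and 5919th, 3512th and 2931st for Jund.

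**Figure D2:**
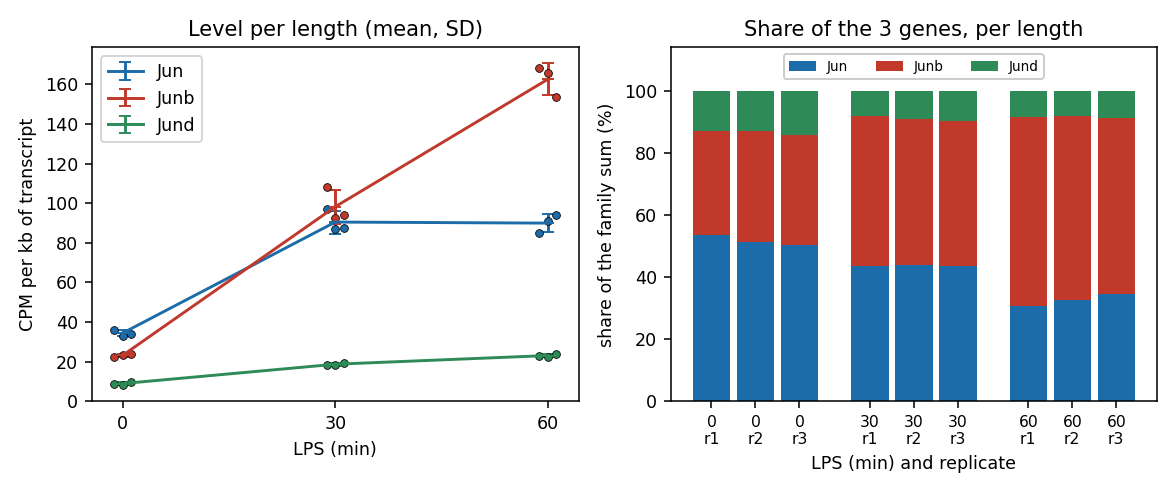
Level per transcript length (left, CPM per kb) and share of the family sum (right, percent) of Jun, Junb and Jund at 0, 30 and 60 min. At left, points are libraries and lines join the means with SD; at right, each stacked bar is 1 library (r1 to r3 are its replicate numbers). The mean share of Jun is 51.7% at 0 min and 32.6% at 60 min, and that of Junb 34.9% at 0 min and 59.0% at 60 min.

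Ratios between members within a library do not depend on the scaling of libraries. The log2 ratio of Junb to Jun counts averaged -1.39 ± 0.10, -0.70 ± 0.03 and 0.04 ± 0.14 at 0, 30 and 60 min (SD, n = 3 each). It was thus 0.69 higher at 30 min and 1.42 higher at 60 min than at 0 min, and the ranges of the 3 times did not overlap. The log2 ratio of Junb to Jund averaged 1.49 ± 0.07, 2.51 ± 0.15 and 2.93 ± 0.11 at 0, 30 and 60 min, a gain of 1.01 by 30 min and 1.44 by 60 min, also without overlap. Both ratios gave p = 0.00357 in an exact permutation test of the difference among the 3 times, the smallest p that assignments of the libraries to times allow (adjusted p = 0.00536 over the 3 ratios). The log2 ratio of Jun to Jund averaged 2.88 ± 0.11, 3.21 ± 0.12 and 2.90 ± 0.07 (exact permutation p = 0.0321, adjusted p = 0.0321): it was 0.33 higher at 30 min than at 0 min, while at 60 min its range of 2.82 to 2.96 lay inside the 0 min range of 2.76 to 2.98.

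**Figure D3:**
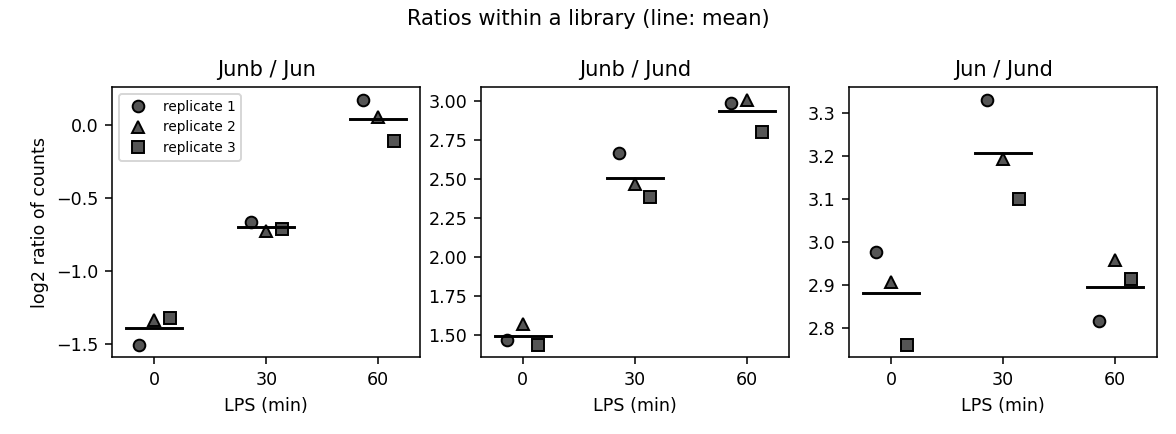
Within-library log2 count ratios of Junb to Jun, Junb to Jund and Jun to Jund at 0, 30 and 60 min. Points are the 3 libraries of a time, lines are their means, and each panel has its own axis, which does not start at 0; the ratios with Junb on top climb at each step, and the mean of Jun to Jund is 2.88 at 0 min, 3.21 at 30 min and 2.90 at 60 min.

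Of the 13 listed genes whose proteins can pair with Jun proteins or compete for them, 11 could be tested; Batf and Batf2 had at most 4 counts in the 3 libraries of any time and could not. At 30 min against 0 min, 6 of the 11 rose and none fell by edgeR, beside 4.84% and 3.35% of all genes. The median log2 change was 0.22 (0.01 over all genes). At 60 min against 0 min, 8 rose and 1 fell, beside 13.3% and 11.7% of all genes, with a median of 1.21 (0.00 over all genes). At 60 min against 30 min, 5 of the 11 were called higher and 1 lower, beside 8.87% and 7.65% of all genes. The last count was 4 with total counts only in place of TMM scaling. It was 2 with no filter on low counts, in DESeq2, in limma-voom, and without 0 min replicate 1 or 2 or 60 min replicate 3.

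Fos, the founding immediate-early partner, held 6.82, 7.27 and 7.75 CPM at 0 min, 203, 187 and 199.7 CPM at 30 min, and 43.4, 69.8 and 57.3 CPM at 60 min. The 3 times did not overlap, and 30 min was the highest. Its log2 change was 4.75 at 30 min (edgeR adjusted p = 2.53e-11) and 2.96 at 60 min (edgeR adjusted p = 1.79e-09), and at 60 min against 30 min it fell by 1.79 (SE 0.11, edgeR adjusted p = 8.41e-08). Over the same step Jun differed by -0.01, Jund rose by 0.30 and Junb rose by 0.73.

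Fosb, which encodes FosB, averaged 0.582 ± 0.247, 47.1 ± 2.94 and 41.1 ± 0.130 CPM at 0, 30 and 60 min (SD, n = 3 each). Its log2 change was 6.34 at 30 min and 6.14 at 60 min (edgeR adjusted p = 6.35e-13 and 1.14e-12). The difference between 60 and 30 min was -0.20 with a 95% interval of -0.34 to -0.05 (edgeR adjusted p = 0.0644), and the libraries of the 2 times did not overlap. Without scaling beyond total counts, with no filter on low counts, in DESeq2 and in limma-voom this difference passed the threshold, as it did without 0 min replicate 1 or 2 (-0.19 to -0.24 in these fits).

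Fosl2, which encodes Fra-2, followed a course like that of Junb but with a smaller step from 30 to 60 min. It held 35.4, 35.8 and 37.0 CPM at 0 min, 213, 166 and 170.0 CPM at 30 min, and 246, 224 and 237 CPM at 60 min, with no overlap between times. Its log2 change was 2.34 at 30 min (edgeR adjusted p = 1.43e-10) and 2.71 at 60 min (edgeR adjusted p = 1.44e-11). From 30 to 60 min Fosl2 rose by 0.36 (95% interval 0.21 to 0.52, edgeR adjusted p = 0.00278), beside 0.73 (95% interval 0.61 to 0.84) for Junb. Fosl1, which encodes Fra-1, was far lower in counts, with 105, 109 and 263 counts summed over the 3 libraries of 0, 30 and 60 min. It differed by 0.08 at 30 min against 0 min (edgeR adjusted p = 0.892) and rose by 1.31 at 60 min (edgeR adjusted p = 3.37e-04).

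Among the ATF partners, Atf3, a stress-induced repressor and activator, rose by 1.05 at 30 min and 1.21 at 60 min on the log2 scale (edgeR adjusted p = 9.46e-09 and 7.52e-10). Its step from 30 to 60 min was 0.16 with overlapping libraries (edgeR adjusted p = 0.0476), and the call was lost with total counts only, in limma-voom, with the replicate block and without any single library except 30 min replicate 1 and 60 min replicate 1 (adjusted p up to 0.212). Creb5, a relative of Atf2, rose mainly after 30 min: it averaged 15.0 ± 1.58, 19.2 ± 2.98 and 56.99 ± 1.43 CPM at 0, 30 and 60 min, a log2 rise of 1.57 from 30 to 60 min (edgeR adjusted p = 5.00e-08). Its change of 0.36 at 30 min against 0 min (edgeR adjusted p = 0.0348) lost its call with total counts only, in limma-voom, and without 0 min replicate 1 or 2, 30 min replicate 1 or 2, or 60 min replicate 1 (0.23 without 30 min replicate 1). Atf4, the effector of the integrated stress response, rose by 0.22 at 30 min and 0.26 at 60 min. Jdp2, a repressor that pairs with Jun proteins, differed by 0.06 at 30 min (not called) and rose by 0.49 at 60 min. Atf2, the classical partner of c-Jun at the Jun promoter, differed by 0.13 at 30 min and 0.02 at 60 min, neither called, although the first gained a call without 60 min replicate 2. Batf3 was called in no comparison. Atf7, close to Atf2 in sequence, fell by 0.15 at 60 min, a call lost without 0 min replicate 1 or 60 min replicate 2.

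**Figure D4:**
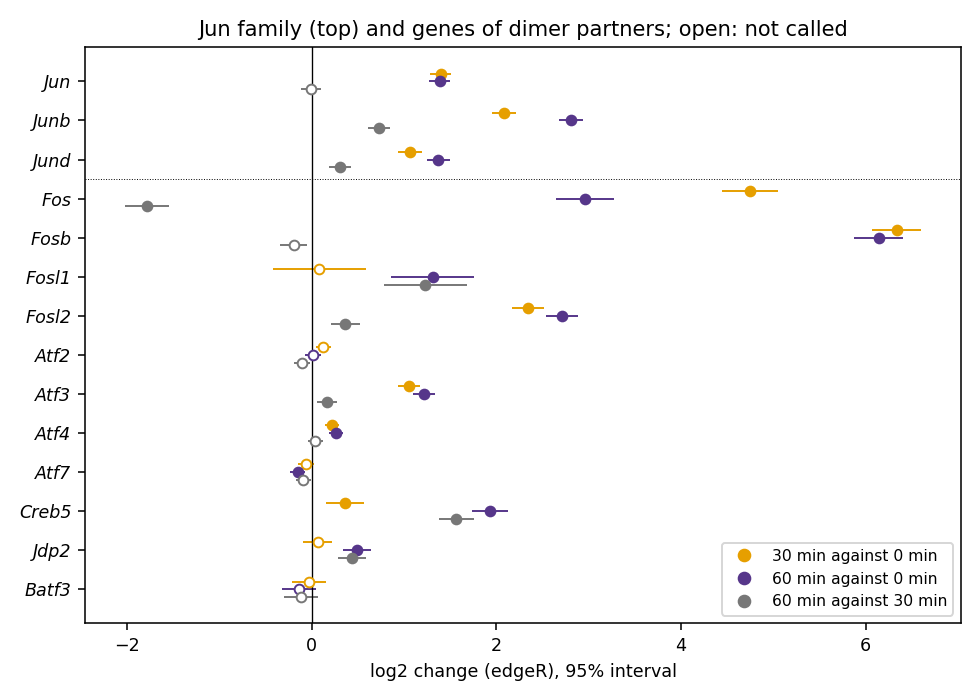
Log2 change by edgeR of the 3 Jun members and the 11 tested dimer partners, for each pair of times. Points are estimates with 95% intervals, filled where the adjusted p was under 0.05; Fos is at 4.75 at 30 min and 2.96 at 60 min, whereas Junb is at 2.08 at 30 min and 2.81 at 60 min.

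Of 17 listed genes of the JNK cascade, which phosphorylates Jun proteins, 15 could be tested. Mapk8 (JNK1) differed from 0 min by 0.08 at 30 min and 0.08 at 60 min, and Mapk9 (JNK2) by 0.00 and -0.04, none called, both chosen for naming after their values were seen. Mapk10 (JNK3) had 0 counts in every library. At 30 min against 0 min, 2 of the 15 rose and none fell by edgeR, beside 4.84% and 3.35% of all genes. The median log2 change was 0.03 (0.01 over all genes). With total counts only, Gadd45b was called lower (-0.24, edgeR adjusted p = 0.0498). The 2 that rose were Dusp1, a phosphatase of p38, JNK and ERK kinases, and Dusp16, a JNK phosphatase.

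Dusp1 averaged 6.02 ± 0.075, 111 ± 13.2 and 100.5 ± 11.7 CPM at 0, 30 and 60 min (SD, n = 3 each), a log2 rise of 4.21 at 30 min and 4.06 at 60 min (edgeR adjusted p = 1.83e-11 and 7.10e-12). Its 30 and 60 min libraries overlapped, as those of Jun did. Dusp16 averaged 27.7 ± 0.619, 34.8 ± 4.74 and 95.2 ± 2.46 CPM at 0, 30 and 60 min, a log2 rise of 1.78 at 60 min (edgeR adjusted p = 2.23e-10). Its change of 0.33 at 30 min (edgeR adjusted p = 0.0140) lost the call without 0 min replicate 2 and without 30 min replicate 1 or 3.

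At 60 min against 0 min, 5 genes of the JNK list rose and 3 fell, with a median log2 change of 0.07 (0.00 over all genes), in a comparison where 13.3% of all genes were called higher and 11.7% lower. Besides Dusp1 and Dusp16, these were Gadd45b, which binds the kinase Map2k7 and inhibits it (0.31), the phosphatase Dusp10 (0.65, on 98 summed counts at 0 min) and the kinase Map3k5 (0.23). The call of Dusp10 was lost in DESeq2 and without any single library among 0 min replicates 2 and 3 and the 60 min replicates, and that of Map3k5 with total counts only and without 0 min replicate 1 or 60 min replicate 3. Map3k1, a kinase upstream of JNK, fell by 0.24, with 195 ± 6.52 CPM at 60 min, against 231 ± 5.74 CPM at 0 min (SD, n = 3 each). Tab1, an activator of the kinase Map3k7, fell by 0.21, and the JNK scaffold gene Mapk8ip3 by 0.15, both chosen for naming after their values were seen. Of the 3 that fell, 1 did so without 0 min replicate 1 or without 60 min replicate 2, and 5 genes fell with total counts only. At 60 min against 30 min, Dusp16 and Gadd45b were called higher and Map3k1 and Map3k11 lower, 2 of the 15 each way, beside 8.87% and 7.65% of all genes. Of the pair, 1 was lower in DESeq2 and in most fits without 1 of the 30 or 60 min libraries.

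All 7 listed genes of Jun protein turnover and Jun cofactors were tested: the ubiquitin ligase genes Fbxw7, Cop1, Det1 and Itch, the deubiquitinase gene Usp28, the signalosome subunit gene Cops5 and Men1, whose product menin binds JunD. None was called in any of the 3 comparisons by edgeR, by DESeq2 or by limma-voom, and none had an unadjusted p under 0.05 by edgeR. Over all genes, edgeR called 4.84% higher and 3.35% lower at 30 min against 0 min. The shares were 13.3% and 11.7% at 60 min against 0 min, and 8.87% and 7.65% at 60 min against 30 min. With total counts only in place of TMM, which moves the median of all genes by -0.07 on the log2 scale at 60 min against 0 min, Cop1 (-0.14) and Men1 (-0.15) were called lower.

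Of 19 listed genes described in the literature as AP-1 targets, 18 were tested, and most were higher after LPS. At 30 min against 0 min, 11 rose and none fell by edgeR, with a median log2 change of 0.71 (0.01 over all genes), where 4.84% of all genes were called higher and 3.35% lower. At 60 min against 0 min 14 rose and 1 fell, with a median of 1.44 (0.00 over all genes), where 13.3% and 11.7% of all genes were called. Many of these genes are LPS-response genes that other factors also drive, and the list was made with earlier results of these data known, so its count is no independent evidence of AP-1 activity. The largest changes were those of Cxcl2, a chemokine gene, at 8.60 and 9.44 on the log2 scale at 30 and 60 min, and Il1b, a cytokine gene, at 7.39 and 8.71. Both were close to absent before LPS, with 32 and 22 counts summed over the 0 min libraries. Ptgs2, which encodes cyclooxygenase-2, was at 3.45 and 3.94, and Tnf at 2.85 and 3.56. Il6 held 3 counts summed over the 0 min libraries, 151 over the 30 min and 219 over the 60 min libraries. Ccnd1, which encodes cyclin D1 and was chosen for naming after its values were seen, was the gene that fell, by 0.17 at 60 min.

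Genes whose course over the 9 libraries was most like that of a member were found by the root mean square difference of their log2 levels from the member's, each taken relative to its 0 min mean, over 9380 genes. For Jun these were Arid5a (0.13), Tgif1 (0.15), Ppp1r15a (0.16), Hcar2 (0.18) and Rsad2 (0.19). For Junb they were Cdkn1a (0.14), Cd14 (0.15), Fosl2 (0.17), Trib1 (0.17) and Nlrp3 (0.18), and for Jund Nfil3 (0.08), H2-K1 (0.11), Tgif1 (0.12), Nr4a1 (0.12) and Atf3 (0.13). Pearson's r of these 15 courses with the member's lay between 0.971 and 0.998 over the 9 libraries, which share 3 times. Fosl2 and Atf3, both AP-1 partners, came out of this search, which covered only protein-coding genes with a mean of at least 5 CPM. By the same measure Jun and Jund lay 0.21 apart, Junb and Jun 0.92, and Junb and Jund 1.02.

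The 3 loci were also read for their neighbours, because the strand setting of the counting is not given in the sources used here. Junos, an antisense gene that overlaps the Jun exon by 232 bases, held 18 to 21 counts per library at 0 min, 19 to 27 at 30 min and 18 to 27 at 60 min, with no call, beside 3008 to 8867 counts of Jun. Gm11175 lies antisense within Jund with an exonic overlap of 877 bases, and had at most 5 counts in any library. Prdx2, a peroxiredoxin gene on the opposite strand, overlaps only the noncoding Junb transcript, by 173 bases, and averaged 65.0, 65.1 and 64.2 CPM at 0, 30 and 60 min, with no call. Rnaseh2a, at 4717 bases downstream of Junb, averaged 24.9, 26.5 and 25.6 CPM, and Hook2, at 11885 bases upstream, 13.8, 15.2 and 15.7 CPM, neither called. Hook2 gained a call at 60 min against 0 min without 0 min replicate 3 (log2 change 0.26, edgeR adjusted p = 0.0244). The other genes within 20 kb of a member, Gm12703, Gm12704, n-R5s189, Rtbdn, Gm49661, Iqcn and Gm3336, had at most 8 counts in any library. Of the 12 neighbours, only Junos, Prdx2, Rnaseh2a and Hook2 could be tested, and none of these was called in any comparison by edgeR. Of all genes, 4.84% were called higher and 3.35% lower at 30 min against 0 min. The shares were 13.3% and 11.7% at 60 min against 0 min, and 8.87% and 7.65% at 60 min against 30 min.

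**Figure D5:**
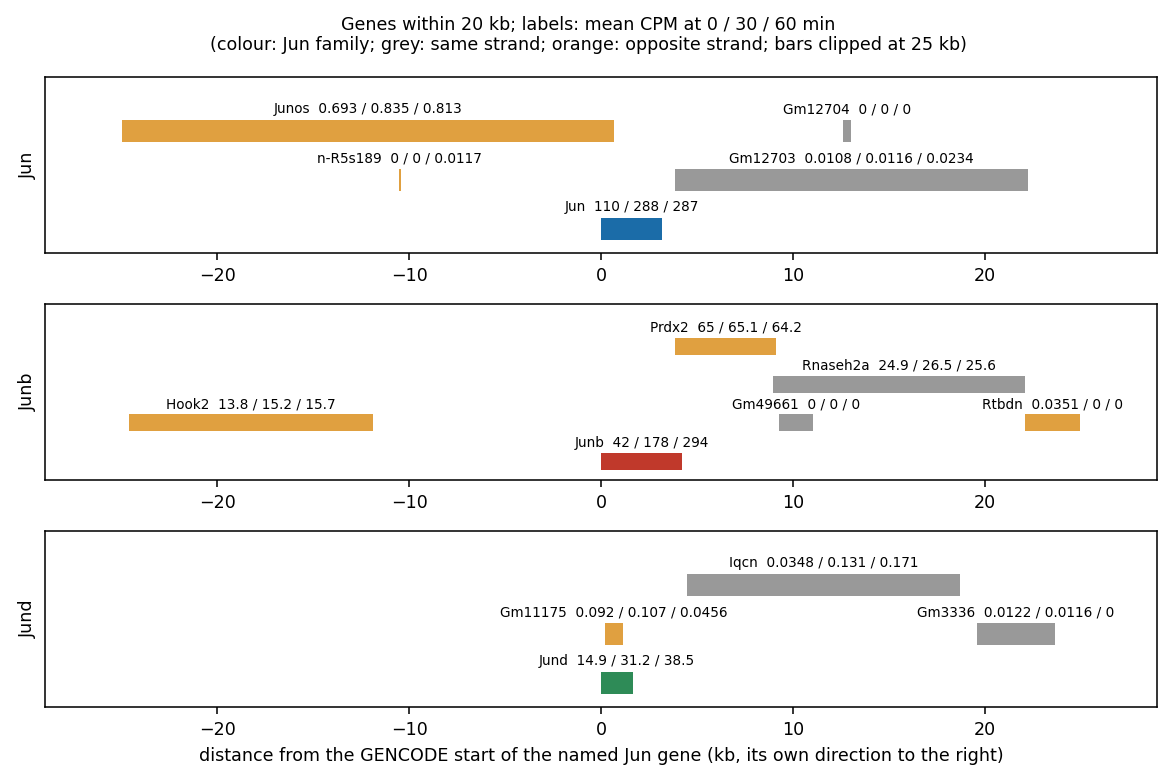
Genes within 20 kb of Jun, Junb and Jund, drawn to scale by distance in kb from the start of the member, with its direction of transcription to the right. Members are in blue, red and green, genes of the same strand in grey and of the opposite strand in orange, bars end at 25 kb, and labels give the mean CPM at 0, 30 and 60 min; Junb has 42.0, 178 and 294 CPM, beside 65.0, 65.1 and 64.2 CPM for Prdx2.

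In the 3′ untranslated regions the pentamer ATTTA, the core of AU-rich elements that are bound by RNA decay factors, occurred 4 times in 1233 bases in Jun, 2 times in 485 bases in Junb and 1 time in 533 bases in Jund. Per kb this was 3.24, 4.12 and 1.88, beside a median of 1.31 over 11087 tested protein-coding genes. At least as many per kb were found in 17.1% of these genes for Jun, 9.85% for Junb and 37.6% for Jund. By plain count the median gene had 2, and 29.2%, 50.5% and 69.9% of genes had at least as many as Jun, Junb and Jund. The longer AU-rich nonamer (TTATTTA followed by 2 bases that are each A or T) was at 0 in all 3. The count of a pentamer describes the sequence and gives no measure of decay.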

How the data were processed

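RNA of 9 libraries was measured. The deposited values are RSEM expected counts per gene, not normalized, per the file headers and labels. Per the submitters' processing notes, the genome build was mm10 and the tools were RSEM 1.3.1, STAR 2.7.0f, cutadapt 1.18, bcl2fastq 2.20, Picard 2.18.26 and DESeq2. Their settings, the annotation and the counting strand: not given in the sources used here. The kit was stranded. The authors' deposited comparison tables hold, per the file headers, a mean signal, a log2 fold change, scores (standard error and Wald statistic) and p-values. Their 0 min baseline was read from the values.

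Expected counts (5.04% to 5.32% of values per library not whole) were rounded and tested with edgeR 4.0.16 (R 4.3.3; quasi-likelihood test, TMM, filterByExpr with a minimum count of 10, all 9 libraries in 1 fit by time, Benjamini-Hochberg over 14246 genes, adjusted p under 0.05). The steps were tested on simulated data. The biological coefficient of variation was 5.20%, and 10 counts were 0.329 to 0.372 CPM. CPM used TMM-scaled totals, and marker levels plain totals. Counts per kb used GENCODE M21 transcript lengths. Ratios used 0.5 added counts and an exact permutation test on the upper tail of F, where differences in either direction count.

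Members and lists were chosen with earlier results of these data known. Named were the members, all tested partners, of each other list the called genes (at most 6, by size at 60 min), the 5 genes most like each member (mean of at least 5 CPM), and neighbours within 20 kb; 1 gene that this rule names is not reported here, though the list counts include it. Alternatives were other scaling, filters, DESeq2 1.42.0, limma-voom (limma 3.58.1), the replicate block, each library left out and, chosen after seeing the data, RefSeq lengths. Same-numbered libraries did not deviate together.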

Additional observations from a re-analysis of the deposited data

Results flagged for a closer look

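The effects at 30 and 60 min share the 0 min libraries, so they were compared by the edgeR test of 60 against 30 min itself. Of the genes reported here under the naming rule, 23 differed there at an adjusted p under 0.05. Map3k11 and Ccnd1, named outside that rule, were also called lower there (log2 differences of -0.165 and -0.145, edgeR adjusted p = 0.0234 and 0.0182). Values are log2 differences, 60 minus 30 min. Among the members, Junb was at 0.73 and Jund at 0.30. Of the dimer partners, Fos was at -1.79, Fosl1 at 1.23, Fosl2 at 0.36, Atf3 at 0.16, Creb5 at 1.57 and Jdp2 at 0.43. Of the JNK list, Dusp16 was at 1.45, Gadd45b at 0.52 and Map3k1 at -0.26.

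Of the AP-1 targets, Cxcl2 was at 0.84, Il1b at 1.32, Ptgs2 at 0.48 and Tnf at 0.71. Of the genes most like a member, Tgif1 was at 0.25, Cdkn1a at 0.40, Cd14 at 0.61, Trib1 at 0.74, Nlrp3 at 1.09, Nfil3 at 0.30, H2-K1 at 0.30 and Nr4a1 at 0.28. Without 30 min replicate 2 the calls of Atf3, Ptgs2, Nfil3, H2-K1 and Nr4a1 were lost, with adjusted p of 0.207, 0.0543, 0.0568, 0.0766 and 0.0772 in that order. Those of H2-K1 and Nr4a1 were also lost without 30 min replicate 3, that of H2-K1 without 60 min replicate 1, that of Nr4a1 without 60 min replicate 3, and that of Ptgs2 in DESeq2. No group held 4 samples, so single libraries were not tested for standing apart.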

How the results depend on the processing

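Under the 16 alternatives run for each member, Jun, Junb and Jund kept direction and call in both comparisons with 0 min, as did Junb and Jund at 60 min against 30 min. Jun was never called in that last comparison, and its difference of -0.01 changed sign without 30 min replicate 1 (0.05) or 60 min replicate 1 (0.03). The log2 change at 30 min against 0 min was 1.34 to 1.43 for Jun, 2.01 to 2.12 for Junb and 1.02 to 1.12 for Jund, and at 60 min against 0 min 1.32 to 1.42, 2.74 to 2.84 and 1.3 to 1.42. At 60 min against 30 min it was -0.05 to 0.05 for Jun, 0.69 to 0.80 for Junb and 0.26 to 0.34 for Jund (highest adjusted p 0.0113). Counts within the lists ranged, over these alternatives, from 5 to 7 partners called higher at 30 min against 0 min and 4 to 5 at 60 min against 30 min, and from 11 to 12 and 11 to 13 targets; at 60 min against 0 min they stayed at 8 and 14. The ratio of Jun to Jund at 60 min against 0 min, 0.01, changed sign in some fits and lay between -0.0454 and 0.0622 with 1 library left out (-0.0454 without 0 min replicate 3, -0.0161 without 60 min replicate 2 and 0.0622 without 0 min replicate 1), and its exact permutation test over the 3 times kept adjusted p at or under 0.0464. Genes called lower at 30 min against 0 min, 477 in all, were 757 with no filter on low counts and 290 to 523 with 1 library left out (290 without 0 min replicate 1, 310 without 30 min replicate 2, 305 without 30 min replicate 3). With total counts only, genes called lower were 3048 in place of 1671 at 60 min against 0 min and 1672 in place of 1090 at 60 min against 30 min. The share of calls that were higher was then 45.9% in place of 59.1% (30 min against 0 min), 30.1% in place of 53.1% (60 min against 0 min) and 37.5% in place of 53.7% (60 min against 30 min). Replicate numbers did not pair the libraries, since same-numbered libraries deviated with correlations of -0.16 to 0.13; with the replicate block, 967, 3234 and 2108 genes were called in place of 1166, 3562 and 2353, the member calls held, and Junb was at 2.81 at 60 min against 0 min.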
